A study of Parasteatoda tepidariorum with 20 samples.

Results

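Homeobox genes outside the Hox clusters were followed through the embryonic development of the common house spider, *Parasteatoda tepidariorum*. Members were the AUGUSTUS gene models (gene predictions on the genome assembly Ptep_1.0) whose deposited description names a homeobox, paired box, POU domain, Iroquois, orthodenticle or engrailed protein. Of 154 gene models with such words, 14 were left out because their descriptions name Hox cluster genes, which left 140 of the 27990 gene models in the table. The rule read the descriptions only, but it was set with earlier results of these data known. The 140 gene models carried 124 different gene identifiers, since 30 gene models shared an identifier with another one. The words also matched 2 gene models described as non-POU domain-containing octamer-binding proteins, which are RNA-binding proteins with no homeodomain. They are counted among the 140 and in the counts of members below. They are set apart only in the summed abundance and where the most abundant members are named. Both were detected at all 10 stages, with highest stage means of 514 RPKM (aug3.g20793) and 54.8 RPKM (aug3.g12206). Of the 2, aug3.g20793 is among the members called higher at st10 against st1. The gene model aug3.g7582, described as ceh-13-like, was kept by the rule although ceh-13 is a Hox gene in *Caenorhabditis elegans*.

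Poly(A) RNA of whole embryos of the Osaka isolate was sequenced at 10 stages in 2 series, and each series came from 1 pair of parents. In hours after egg laying, the samples were of 9 h for st1 (16 cells), 15 h for st2 (256 cells), 20 to 21 h for st3, 25 to 26 h for st4, 31 to 32 h for the early part of st5 and 36 to 37 h for its late part, 42 to 43 h for st6, 50 h for st7, 60 h for st8 and 78 h for st10, with 1 library per stage and series. The labels give no mutation or treatment, each library was a pool of embryos, and p-values measure the spread between the 2 pairs of parents. Abundance was deposited as RPKM, that is, reads scaled by exon length and by the reads of the library, which allows levels of different genes to be compared per length.

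The 20 libraries held 9160802 to 17019009 reads, and at the median member length of 1262 bp of exon, 3 reads corresponded to 0.14 to 0.26 RPKM. That limit covers counting error only. The st6 library of series 2 stood apart from the rest: the series correlated across gene models with r = 0.93 at st6 and 0.95 to 0.98 at the other stages, and this library had the highest share of its reads on gene models, 92.8%, against 77.5 to 88.5% elsewhere. Results that rest on st6 are therefore given by series, and with and without each st6 library. The embryos were whole, so fewer cells of a type and less RNA per cell cannot be told apart in any value below.

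The homeobox encodes a DNA-binding domain, the homeodomain, shared by many transcription factors that assign position and cell type in animal embryos. Homeobox genes fall into classes. TALE proteins such as Meis and extradenticle bind DNA together with other homeodomain proteins, whereas Pax, POU, LIM and CUT proteins carry a further protein domain beside the homeodomain, and PRD-like, NK-like and sine oculis-type proteins are known above all from the patterning of head, nerve cord, eye and mesoderm. In Drosophila, orthodenticle acts in the head and engrailed marks the posterior part of each segment.

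In the cleaving egg 23 of the 140 members were detected, and 49 began at st6, when the germ band forms, or later. Onset was taken as the first stage with at least 1 RPKM in both series. By this measure 9 members began at st2 after the 23 of st1. Onsets were then few, with 4 members at st3, 3 at st4, 3 in early and 1 in late st5. They became frequent again with 9 members at st6, 12 at st7, 9 at st8 and 19 at st10. The other 48 never reached 1 RPKM in both series at any stage. Onsets were not counted over all gene models, so these numbers describe the members alone. The number detected was 23 at st1 and between 28 and 31 at each stage from st2 to st5 late. At st6 it was 39 (49 in series 1 alone and 43 in series 2 alone). It was then 55 at st7, 66 at st8 and 84 at st10. At st1 this was 23.7% of the 97 members and 75.6% of the 13375 gene models that had at least 1 RPKM in at least 2 samples, and at st10 it was 86.6% of those members and 79.5% of all. Of the 97, 15 met that minimum only with the st10 libraries. Detected at all 10 stages were 17 members, a number that was not counted over all gene models either.

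**Figure D1:**
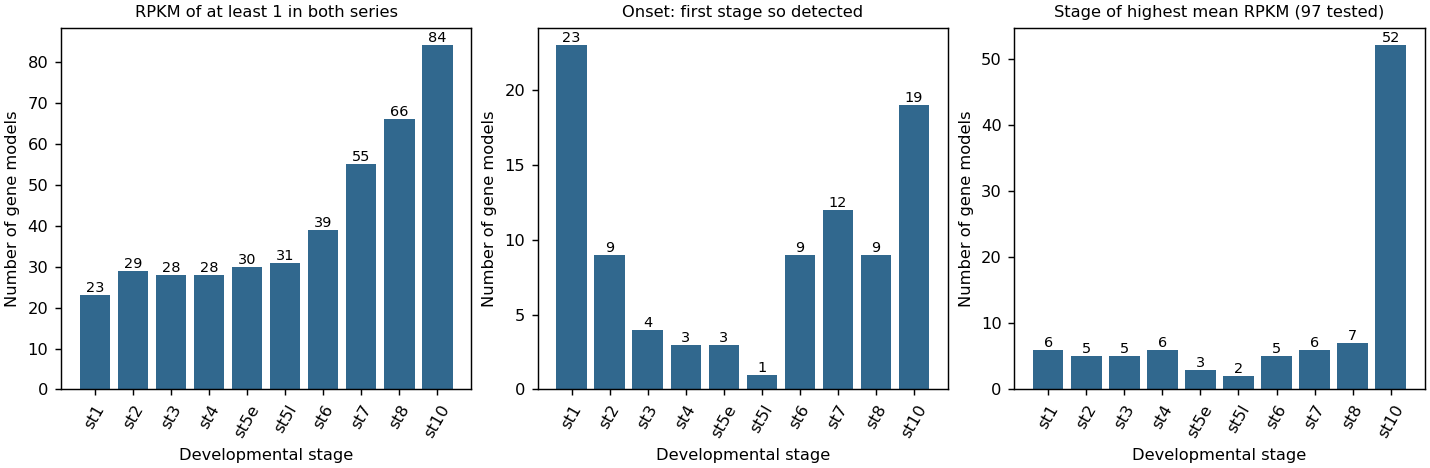
Numbers of homeobox gene models by developmental stage (horizontal axes, st1 to st10), as bars that start at 0: left, those with at least 1 RPKM in both series; middle, those whose onset falls at the stage; right, those with their highest mean RPKM there, among the 97 tested. Detection stays at 28 to 31 gene models from st2 to st5 late and reaches 84 at st10, and 52 of the 97 peak at st10.

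Peaks were concentrated at the end of the series. The peak was the stage with the highest mean RPKM of the 2 series, and it was read for the 97 members that had at least 1 RPKM in at least 2 samples. No stage before st10 held more than 7 of these peaks, which is the number at st8, and st5 late held the fewest with 2, while 52 members peaked at st10. The number at st10 was 50 in series 1 alone, 52 in series 2 alone and 50 with median-ratio scaling. Counts at earlier stages moved too. At st6 there were 5 peaks by the mean, 9 in series 1, 5 in series 2 and 10 with median-ratio scaling. Series 2 alone had 10 peaks at st3. The share peaking at st10 was 53.6% of the tested members and 15.0% of all 13375 gene models tested, and the share peaking at st1 was 6.2% of the members and 27.2% of all. When the minimum was read outside st10, 37 of 82 members (45.1%) and 13.5% of 13104 gene models peaked at st10. The peak was at the same stage in both series for 65 of the 97 (67.0%, against 54.8% of all tested gene models). Since st10 is the last stage sampled, a peak there is only the highest point within the range studied.

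Over all 140 members, the mean RPKM at st10 was above that at st1 in 98, below it in 30 and equal in 12. In 90 members st10 was higher in both series, and in 15 it was lower in both. Of the 43 members that did not pass the filter, 5 had no reads in any library and 38 had reads but a highest stage mean of at most 1.24 RPKM. The members were mostly of low abundance: the median of the highest stage means was 10.1 RPKM among those tested, 50 reached 10 RPKM and 13 reached 50 RPKM. Without the 2 non-POU gene models, the summed abundance of the members was 372 and 433 RPKM at st1 in series 1 and 2, 765 and 723 RPKM at st4, 696 and 477 RPKM at st6, 818 and 815 RPKM at st8, and 1242 and 1302 RPKM at st10. The sums were thus highest at st10 and lowest at st1 in both series, and the series differed most at st6, where the library of series 2 was the lower.

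**Figure D2:**
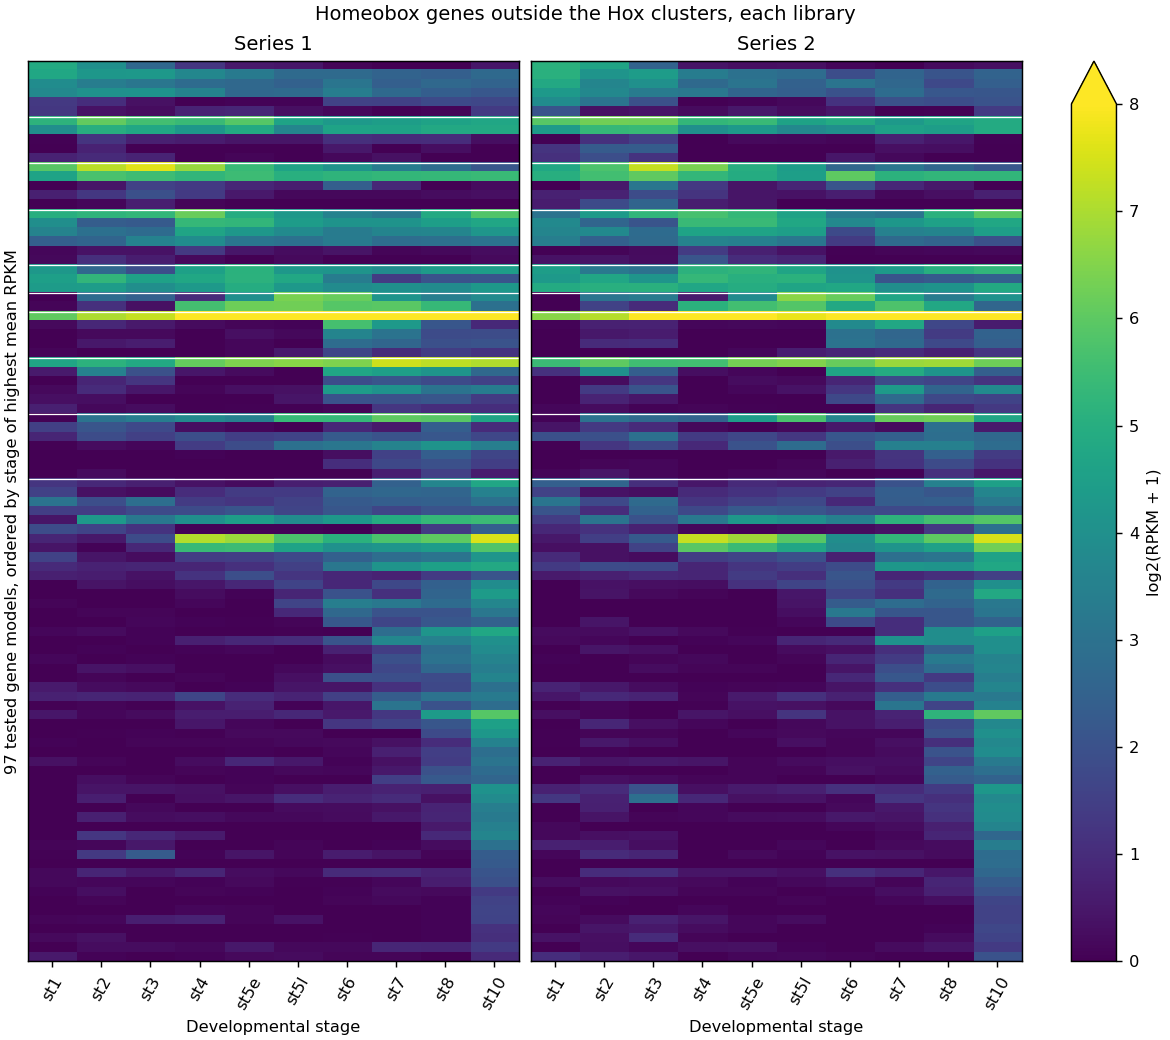
Abundance of the 97 tested homeobox gene models (1 row each) in the 20 libraries, as log2(RPKM + 1) from 0 (dark) to 8 or more (bright), with series 1 left, series 2 right, and stages from st1 to st10 across. Rows are ordered by the stage of the highest mean and white lines part those stages; the lowest block, 52 rows, peaks at st10 and is dark in most earlier stages.

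Stages were compared with limma on log2(RPKM + 1), fitted to all 20 samples and all 13375 tested gene models, and p-values were adjusted over all of them (Benjamini-Hochberg, called at adjusted p under 0.05). The pseudocount makes log2 changes of weakly expressed genes too small, so they are given beside the RPKM values. Across the 10 stages, 88 of the 97 tested members were called by the moderated F test, against 79.8% of all tested gene models. A member that passed the filter through 1 stage only had to differ between stages, so this count describes the members and supports nothing further. The 9 that were not called included the POU class 6 gene aug3.g19365, ZEB2 (aug3.g19505), Pitx3 (aug3.g1240), the zinc finger homeobox 4-like gene aug3.g26127 and 1 extradenticle-like gene model, aug3.g27747.

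At st10 against st1, the largest span of the series, 68 members were higher and 8 lower. Among all tested gene models 23.2% were called higher and 34.9% lower at this comparison, 58.2% in either direction. The median log2 change was 1.87 over the tested members and -0.24 over all tested gene models, and with median-ratio scaling between libraries, which shifts the latter to 0.01, it was 2.07 over the members, of which 71 were then called higher and 7 lower. That scaling changed the split over all gene models to 3811 higher and 3893 lower, against 3109 and 4673 with the RPKM values as deposited. Of these members 14 met the minimum only with the st1 and st10 libraries, so that their calls partly restate it. When the minimum was read outside those stages, 53 of 81 members were higher and 8 lower, against 22.2% and 34.8% of all, and of the 76 calls 57 held in this and every other alternative.

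**Figure D3:**
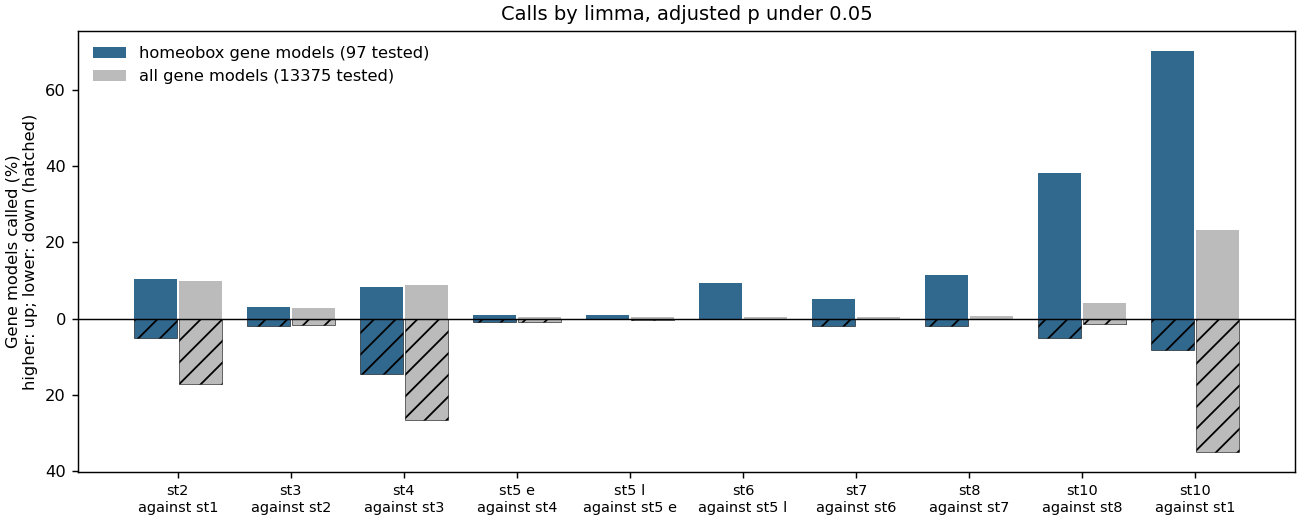
Percentages of gene models called by limma at each comparison of stages (horizontal axis, later stage named first), with higher at the later stage upward and lower downward (hatched), for the 97 tested homeobox gene models (blue) and all 13375 tested gene models (grey). At st10 against st8 the homeobox bar for higher reaches 37 of 97 gene models, against 4.17% of all (18 of 75 and 2% when the minimum is read outside these stages), and at st5 late against st5 early both bars are close to 0.

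The members most abundant in the cleaving egg took different courses afterwards. Apart from the non-POU gene model aug3.g20793, the highest means at st1 were those of the extradenticle-like gene aug3.g27748, CUP9 (aug3.g10009), Meis1 (aug3.g3111), MSX-2-like (aug3.g4533) and homeobox protein 2-like (aug3.g13847). The extradenticle-like aug3.g27748, described after the Drosophila partner of Hox proteins, had 34.7 and 59.0 RPKM at st1, the most at st2 with 66.2 and 76.2 RPKM, and 25.4 and 28.8 RPKM at st10. Its log2 change at st10 against st1 was -0.72 ± 0.29 (SE, limma adjusted p = 0.046), and the call was lost in 16 alternatives, with an adjusted p of 0.40 by limma without the st1 library of series 2.

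CUP9 (aug3.g10009, scaffold 1100, 257240 to 267284, minus strand), described after a homeobox repressor of budding yeast, formed a single early wave. In series 1 it had 59.3 RPKM at st1, then 142 at st2 and 200 at st3, followed by 107 at st4, 41.0 at st5 early, 23.8 at st5 late, 16.1 at st6, 9.19 at st7, 6.16 at st8 and 3.39 at st10. Series 2 followed the same course from 26.4 RPKM at st1 over 52.6 at st2 to 155 at st3, and then down to 82.5 at st4, 31.0 at st5 early, 5.29 at st6 and 3.52 at st10. Every value from st1 to st5 late was above every value from st6 to st10. The peak at st3 averaged 178 ± 32.1 RPKM (SD, n = 2), and st10 was below st1 by a log2 change of -3.19 ± 0.49 (limma adjusted p = 6.0e-05).

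MSX-2-like (aug3.g4533, scaffold 569, 801377 to 835684, minus strand), of the msh family that in Drosophila acts in the dorsal nerve cord, was the clearest case of a transcript lost after cleavage. It had 28.5 and 33.6 RPKM at st1, 14.7 and 24.5 at st2, 5.31 and 4.84 at st3, 1.39 and 0.384 at st4, and at most 0.446 RPKM in any later library. Both steps from st2 to st4 were called, with a log2 change of -1.72 ± 0.27 at st3 against st2 and -1.74 ± 0.27 at st4 against st3 (limma adjusted p = 0.0058 and 0.00019). The first call was lost in 3 alternatives, with an adjusted p of 0.0996 by limma at a pseudocount of 0.1, and the second held in every alternative. At st10 it had 4 and 3 reads, against 295 and 284 at st1, and the log2 change was -4.58 ± 0.27 (limma adjusted p = 3.5e-09), the largest fall among the members.

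Homeobox protein 2-like (aug3.g13847) fell to 5.59 and 4.83 RPKM at st10, against 26.5 and 33.1 RPKM at st1, with a log2 change of -2.30 ± 0.28 (limma adjusted p = 6.6e-06). Homeobox-containing protein 1 (aug3.g25740), named for a protein that binds telomeric DNA in human cells, had 3.48 and 3.42 RPKM at st10, against 12.4 and 19.1 at st1 (log2 change -1.89 ± 0.38, limma adjusted p = 0.00067). In both genes the st10 values lay below all values from st1 to st4.

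B-H1 (aug3.g8250, scaffold 887, 91498 to 141034, minus strand), a BarH gene known from the Drosophila eye and sense organs, kept its early level far longer. It had 17.1 to 38.8 RPKM in every library from st1 to st5 late, 9.33 and 16.6 RPKM at st6, and 1.65 to 4.53 RPKM from st7 to st10. The fall at st7 against st6 had a log2 change of -2.01 ± 0.32 (limma adjusted p = 0.014) and was lost without the st7 library of series 1 (adjusted p = 0.24 by limma) or the st6 library of series 2. At st10 against st1 its log2 change of -2.13 ± 0.32 (limma adjusted p = 5.8e-05) held in every alternative.

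**Figure D4:**
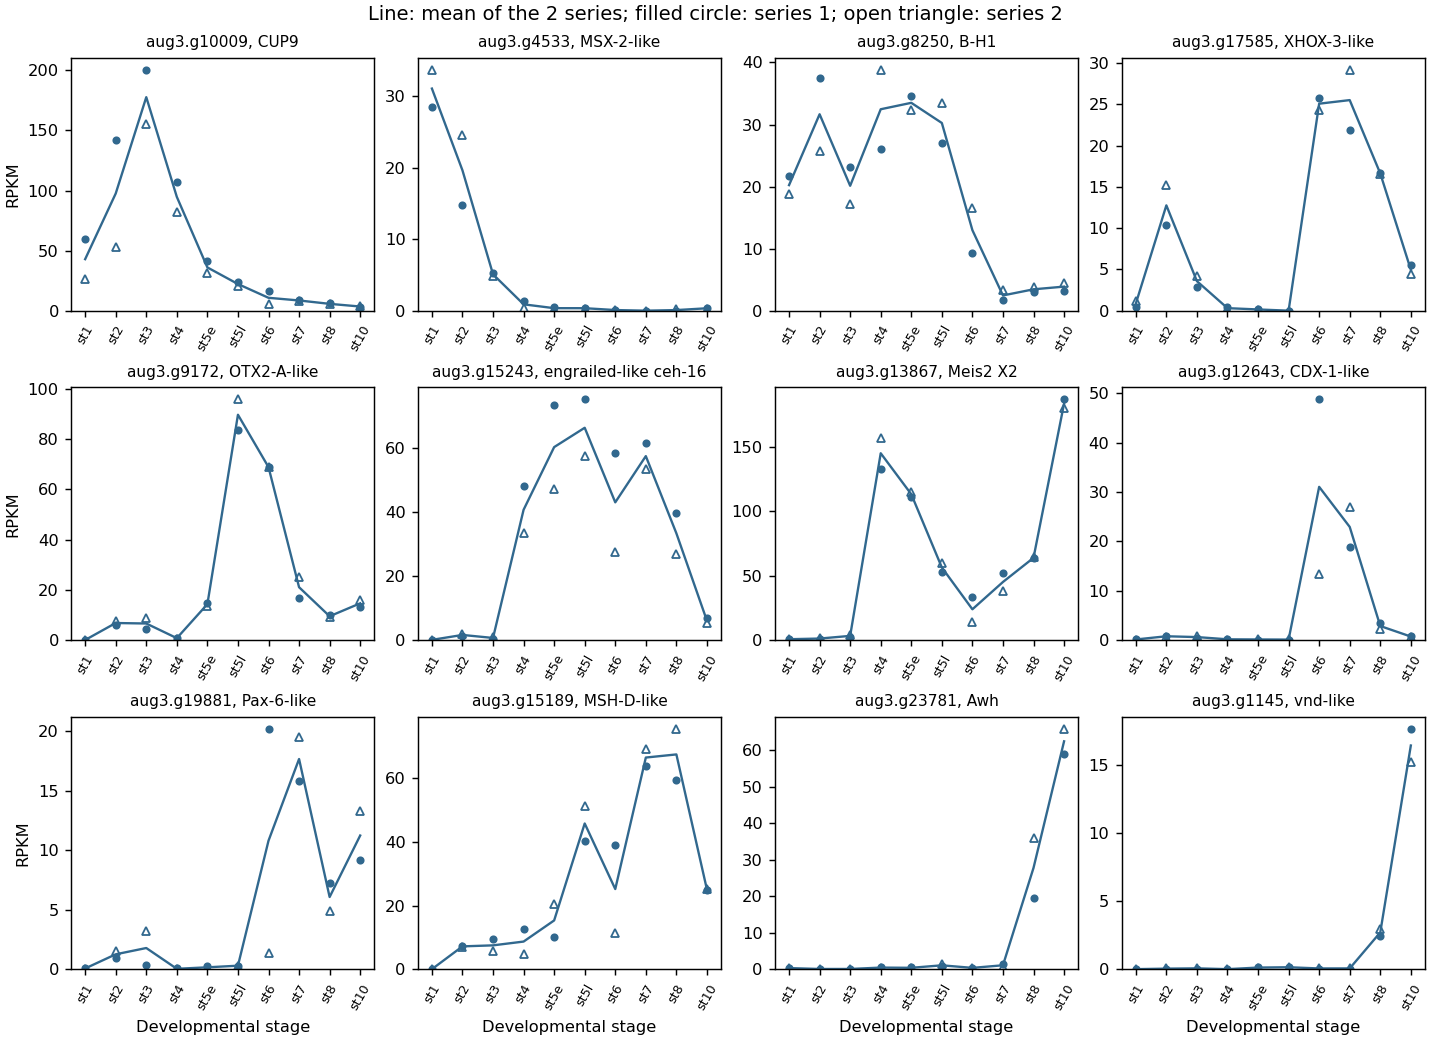
Abundance in RPKM (vertical axes, linear, from 0) by developmental stage (horizontal axes) for 12 homeobox gene models; filled circles are series 1, open triangles series 2, and lines join the means of the 2 series. CUP9 peaks at st3 with a mean of 178 RPKM and MSX-2-like is highest at st1, whereas Meis2 steps up at st4, OTX2-A-like peaks at st5 late, and Awh and vnd-like are near 0 up to st7. At st6 the series part most widely in CDX-1-like, aug3.g12643 (48.7 and 13.3 RPKM), and Pax-6-like, aug3.g19881 (20.2 and 1.40 RPKM).

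At st2 against st1, 10 members were higher and 5 lower, close to the 9.78% of all tested gene models called higher and below the 17.2% called lower (27% in either direction). With median-ratio scaling the members' split stayed at 10 and 5, while over all gene models it changed to 2133 higher and 2048 lower from 1308 and 2303. Of the 15, 7 held in every alternative. The 4 largest rises were in MSH-D-like (aug3.g15189), OTX2-A-like (aug3.g9172), XHOX-3-like (aug3.g17585) and IRX-6 (aug3.g8295), with log2 changes of 2.98 ± 0.49, 2.95 ± 0.28, 2.90 ± 0.27 and 2.76 ± 0.48 (limma adjusted p = 0.00042, 4.7e-06, 3.6e-06 and 0.00065), and these 4 held in every alternative. MSH-D-like, another gene of the msh family, had 7.33 and 7.06 RPKM at st2, against 0.0231 and 0.0567 at st1, where 1 and 2 reads were counted. The 2 gene models described as extradenticle both fell: aug3.g20631 had 4.15 and 5.13 RPKM at st2, against 14.5 and 13 at st1 (log2 change -1.39 ± 0.21, limma adjusted p = 0.00019), while the call of aug3.g20467 was lost in 4 alternatives.

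At st3 against st2, 3 members were higher and 2 lower, against 2.72% and 1.78% of all tested gene models. In either direction this was 5.15% of the members, close to the 4.5% of all. With median-ratio scaling 1 was higher and 2 lower. None of the 5 calls held in every alternative. Leaving out any 1 library of st4, st5 early, st5 late, st7, st8 or st10 gave 3 calls, leaving out the st3 library of series 2 gave 1, and leaving out the st2 library of series 2 gave 0 by limma, with 10 members at an unadjusted p under 0.05. The genes that were higher at st3 were orthopedia-like (aug3.g16467), Meis2 (aug3.g13868) and IRX-4-like (aug3.g4636), and the genes that were lower were MSX-2-like (aug3.g4533) and XHOX-3-like (aug3.g17585).

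At st4, when the germ disc forms, both Meis2 gene models, engrailed-like ceh-16 and 3 extradenticle or extradenticle-like gene models rose. At st4 against st3, 8 members were higher and 14 lower, against 8.72% and 26.5% of all tested gene models, or 35.2% in either direction. With median-ratio scaling, which shifts the median change of all gene models to 0.00, from -0.26 with the deposited values, 11 members were higher and 9 lower. Without the st4 library of series 2, 14 members were called over both directions, in place of 22. The 3 largest rises were those of both Meis2 gene models and of the engrailed-like ceh-16 gene, and 2 extradenticle gene models came next.

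Meis2 encodes a TALE protein of the Meis and homothorax family, partners of extradenticle and Pbx proteins. Its gene model aug3.g13867 (scaffold 1742, 53410 to 174714, minus strand) had 133 and 157 RPKM at st4, against 2.54 and 3.81 at st3. The log2 change of 5.14 ± 0.36 (limma adjusted p = 1.1e-07) was the largest of any member at any single step. The level then sank to 111 and 115 RPKM at st5 early, 52.5 and 60.0 at st5 late, and 33.5 and 14.1 at st6. It was again higher at the end, with 51.7 and 38.3 RPKM at st7, 63.2 and 64.2 at st8, and 187 and 180 at st10, the peak (183 ± 4.62, SD, n = 2). The rise at st10 against st8 had a log2 change of 1.51 ± 0.36 (limma adjusted p = 0.021), which 5 alternatives lost, with an adjusted p of 0.18 by limma without the st10 library of series 2.

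The second Meis2 gene model, aug3.g13868 (scaffold 1742, 239023 to 342524), has the same gene identifier and lies on the same scaffold and strand. It followed the same course at a lower level per length: 40.6 and 60.7 RPKM at st4, against 0.870 and 1.98 at st3 (log2 change 4.42 ± 0.27, limma adjusted p = 3.7e-08), and 56.0 and 78.1 RPKM at st10. The log2 values of aug3.g13867 and aug3.g13868 correlated over the 20 samples with r = 0.99, as a description of models that may be parts of 1 gene.

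The extradenticle gene models split into 2 kinds at this step. The gene model aug3.g20631 (scaffold 4013, 101146 to 246608, plus strand) had 38.9 and 42.1 RPKM at st4, against 3.85 and 3.20 at st3 (log2 change 3.20 ± 0.21, limma adjusted p = 5.4e-08), and stayed between 12.7 and 41.6 RPKM to st10. Its partner with the same identifier, aug3.g20467, had 22.1 and 33.9 RPKM at st4, against 2.74 and 6.96 at st3 (log2 change 2.38 ± 0.39, limma adjusted p = 0.00025). Of the 3 gene models described as extradenticle-like, which share 1 identifier, aug3.g13538 also rose, to 24.4 and 23.8 RPKM at st4, against 5.88 and 5.96 at st3 (log2 change 1.86 ± 0.40, limma adjusted p = 0.0023). The other two lie on another scaffold, 233: aug3.g27747 had 19.0 and 25.6 RPKM at st4, against 14.4 and 32.8 at st3, and aug3.g27748 had 42.0 and 38.6 RPKM, against 46.7 and 73.7, and no change was called in either. The log2 values of aug3.g13538 correlated over the 20 samples with r = 0.18 with aug3.g27747 and -0.08 with aug3.g27748, whereas those 2 correlated with each other with r = 0.68.

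Among the other TALE genes, Meis1 (aug3.g3111) had at least 24.9 RPKM in every library. It had 24.9 and 42.7 RPKM at st1, 68.4 and 46.4 at st4, 94.9 and 89.0 at st5 late, 166 and 111 at st7, and 132 and 74.9 at st10. The log2 change at st10 against st1 was 1.58 ± 0.38 (limma adjusted p = 0.0025), and the series differed in size, with changes of 2.37 and 0.80. PKNOX1-like (aug3.g6392), a TALE gene near Meis, dropped at 2 early steps, to 2.82 and 2.39 RPKM at st2, against 7.48 and 7.58 at st1, and to 1.63 and 1.37 at st4, against 6.47 and 5.86 at st3. Of the 11 gene models of this group outside the Iroquois genes, 8 had their onset at st1, the highest number of any class. At st10 against st1, 4 of the 10 tested were called higher and 2 lower, against 23.2% and 34.9% of all tested gene models.

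Engrailed-like ceh-16 (aug3.g15243, scaffold 36, 2083470 to 2092858, minus strand) was the most abundant of the 3 engrailed gene models. It had 1.18 and 1.97 RPKM at st2, 0.281 and 0.994 at st3, 48.1 and 33.4 at st4, 73.6 and 47.2 at st5 early, 75.3 and 57.6 at st5 late, 58.6 and 27.6 at st6, 61.5 and 53.6 at st7, 39.9 and 26.9 at st8, and 6.77 and 5.29 at st10. The 12 values from st4 to st8 lay between 26.9 and 75.3 RPKM, above all others. The rise at st4 against st3 had a log2 change of 4.68 ± 0.37 (limma adjusted p = 2.9e-07), and the fall at st10 against st8 one of -2.27 ± 0.37 (limma adjusted p = 0.0011). Both held in every alternative.

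The other 2 engrailed gene models came much later. The model described as engrailed (aug3.g14050, scaffold 1786) was at or under 0.742 RPKM until st5 late and had 3.03 and 2.36 RPKM at st6, against 0.360 and 0 at st5 late (log2 change 1.66 ± 0.29, limma adjusted p = 0.014; 0.28 without the st5 late library of series 2). It stayed between 1.63 and 5.74 RPKM afterwards. E30-like (aug3.g7393, scaffold 25, 1672619 to 1753565, plus strand), named after the honeybee engrailed protein, had 6.27 and 1.06 RPKM at st7, 16.9 and 14.2 at st8, and 26.0 and 22.2 at st10, and at most 0.317 RPKM in any earlier library. The 3 genes thus had onsets at st2, st6 and st7, and peaks at st5 late, st7 and st10.

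The single steps from st4 to st5 late had few calls, among the members as among all tested gene models. The span from st4 to st5 late was not tested as a whole, and a level can change without a call. At st5 early against st4, 1 member was higher and 1 lower, against 0.344% and 0.994% of all tested gene models (1.34% in either direction), and at st5 late against st5 early 1 was higher and 0 lower, against 0.426% and 0.441% (0.867% in either direction). By limma, 5 members were lower at the second of these steps at an unadjusted p under 0.05, and with voom weights 0 were called lower. The gene that was higher at both steps was OTX2-A-like. The one that was lower was a paired mesoderm homeobox 2-like gene (aug3.g4151), with 0.392 and 0.627 RPKM at st5 early, against 1.48 and 1.61 at st4. That call was lost in 16 alternatives, and the gene model met the minimum only with the libraries of st4 and st5 early.

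OTX2-A-like (aug3.g9172, scaffold 996, 78536 to 126829, plus strand), a relative of Drosophila orthodenticle, was called at 5 single steps, as was XHOX-3-like, and no other member was called at more. It had 0 reads at st1 in both series, then 5.98 and 7.53 RPKM at st2, 4.53 and 8.59 at st3, and 0.970 and 0.494 at st4. It returned with 14.9 and 13.7 RPKM at st5 early and 83.6 and 95.8 at st5 late, its peak (89.7 ± 8.63, SD, n = 2), and had 68.8 and 68.8 at st6, 16.8 and 25.2 at st7, 9.77 and 9.13 at st8, and 13.2 and 16.0 at st10. The log2 changes were -2.09 ± 0.28 at st4 against st3, 3.15 ± 0.28 at st5 early against st4, and 2.57 ± 0.28 at st5 late against st5 early (limma adjusted p = 4.5e-05, 3.9e-05 and 0.00038). These 3 calls held in every alternative. The fall at st7 against st6, a log2 change of -1.69 ± 0.28 (limma adjusted p = 0.014), was lost without the st7 library of series 1 (adjusted p = 0.25 by limma), without the st6 library of series 2 and with a pseudocount of 0.1.

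The other Otx gene, OTX2 (aug3.g25936, scaffold 129), was late. It had at most 0.786 RPKM until st5 late, 3.01 and 2.13 at st6, 1.14 and 1.18 at st7, 5.00 and 5.85 at st8, and 20.1 and 27.4 at st10. The rise at st10 against st8 had a log2 change of 1.93 ± 0.23 (limma adjusted p = 5.6e-05), which only the pseudocount of 0.1 lost (adjusted p = 0.11 by limma). OTX2 was thus highest at the last stage, where OTX2-A-like was far below its peak.

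At st6 XHOX-3-like, CDX-1-like, 3 Pax-6 gene models and EMX2-like were among the members that rose. At st6 against st5 late, 9 members were higher and 0 lower, against 0.396% and 0.209% of all tested gene models, or 0.606% in either direction. At an unadjusted p under 0.05, 8 members were lower by limma, and with voom weights 0 were called lower. Without the st6 library of series 2, 13 members were called, and without that of series 1, 25 were called, and the 9 were among them in both cases. Of the 9, 6 held in every alternative: XHOX-3-like, CDX-1-like, 3 Pax-6 gene models and EMX2-like.

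XHOX-3-like (aug3.g17585, scaffold 2587, 24766 to 40760, plus strand), described after the Xenopus relative of even-skipped, had 2 separate phases. It had 0.490 and 1.20 RPKM at st1, 10.3 and 15.2 at st2, 2.93 and 4.23 at st3, at most 0.393 RPKM at st4 and st5 early, and 0 reads in both series at st5 late. At st6 it had 25.8 and 24.3 RPKM, and the series differed little there. The log2 change at st6 against st5 late was 4.70 ± 0.27 (limma adjusted p = 6.5e-07), the second largest rise of any member at a single step after that of Meis2. It then had 21.9 and 29.2 RPKM at st7, 16.7 and 16.6 at st8, and 5.52 and 4.40 at st10.

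CDX-1-like (aug3.g12643, scaffold 1522, 47421 to 84374, minus strand), of the caudal family that acts at the posterior end of animal embryos, was expressed for a short time. It had at most 0.840 RPKM in every library up to st5 late, 48.7 and 13.3 at st6, 18.8 and 27.0 at st7, 3.41 and 2.24 at st8, and 0.878 and 0.513 at st10. The st6 values differed between the series by more than 3-fold. The rise at st6 against st5 late had a log2 change of 4.63 ± 0.41 (limma adjusted p = 5.7e-05), and the fall at st8 against st7 one of -2.64 ± 0.41 (limma adjusted p = 0.0062), which was lost without the st7 library of series 2 (adjusted p = 0.13 by limma) and without the st8 library of series 2.

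Of the Pax-6 gene models, of a family known for its part in eye and brain development, 3 rose at st6. The gene models aug3.g22155, aug3.g19451 and aug3.g11688 had 11.2 and 6.94 RPKM, 6.07 and 7.23 RPKM, and 3.62 and 2.45 RPKM at st6, against at most 0.120 RPKM in any st5 late library. Their log2 changes were 3.22 ± 0.28, 2.93 ± 0.22 and 1.87 ± 0.23 (limma adjusted p = 5.7e-05, 1.8e-05 and 0.00095), in every alternative called. The model aug3.g19451 also had a weak early level, with 0.436 and 0.981 RPKM at st2, against 0 reads in both series at st1 (log2 change 0.75, limma adjusted p = 0.022, lost in 4 alternatives), and again 0 reads in both series at st4. The Pax-6 models aug3.g25686 and aug3.g24194 did not pass the filter, with highest stage means of 1.24 and 0.0479 RPKM. Pax-6-like (aug3.g19881) reached the highest stage mean of the Pax members, with 15.9 and 19.5 RPKM at st7. At st6 it had 20.2 RPKM with 343 reads in series 1 but 1.40 RPKM with 21 reads in series 2, and its change at that step was not called. All 8 tested Pax members were called higher at st10 against st1, where 23.2% of all tested gene models were. Of the 8, 2 met the minimum only with libraries of st1 and st10, and 7 had their onset at st6 or later. The exception was Pax-5 (aug3.g762), with 2.63 and 3.01 RPKM at st5 early and 16.3 and 10.2 at its peak at st8. Pax genes whose descriptions lack the words searched are not counted here. Among them are the gooseberry gene models aug3.g18397, with a highest stage mean of 54.2 RPKM, and aug3.g11337, both with onset at st2.

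At st7 against st6, 5 members were higher and 2 lower, against 0.277% and 0.0822% of all tested gene models, or 0.359% in either direction. This count rests on the st6 libraries: it was 27 over both directions without the st6 library of series 1, 1 without that of series 2, and 1 without the st7 library of series 1. The call that held throughout was that of the LIM gene Lhx5-like (aug3.g10485), with 7.50 and 7.61 RPKM at st7, against 0.410 and 0.154 at st6 (log2 change 2.75 ± 0.25, limma adjusted p = 0.00035). LIM homeodomain proteins of this kind act in neurons. It had 3.07 and 2.11 RPKM at st8, a fall whose call was lost in 16 alternatives, and 6.22 and 10.8 RPKM at st10.

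The sine oculis-type genes, which with optix act in the eye and head of Drosophila, mostly began late, 4 of the 5 at st7 or st8. SIX6-like (aug3.g3570) had 12 and 15.9 RPKM at st7, against 3.24 and 0.933 at st6 (log2 change 2.37 ± 0.35, limma adjusted p = 0.0078), a call lost in 5 alternatives, with the highest adjusted p, 0.27 by limma, at a pseudocount of 0.1. It remained at 10.5 to 15.3 RPKM at st8 and st10. A second SIX6-like gene (aug3.g26046) had 2.93 and 4.64 RPKM at st8, against 0.419 and 0.171 at st7 (log2 change 1.87 ± 0.19, limma adjusted p = 0.00012). All 5 gene models of this class were called higher at st10 against st1, where 23.2% of all tested gene models were.

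At st8 against st7, 11 members were higher and 2 lower, against 0.546% and 0.0748% of all tested gene models, or 0.621% in either direction. The count over both directions was 3 without the st7 library of series 2, 4 without the st8 library of series 2 and 7 without the st8 library of series 1. Held in every alternative were the calls of Awh, vnd-like and SIX6-like (aug3.g26046). Awh (aug3.g23781, scaffold 65, 409740 to 500774, plus strand), the LIM gene Arrowhead of Drosophila, had 19.5 and 36.0 RPKM at st8, against 1.45 and 0.751 at st7 (log2 change 3.73 ± 0.28, limma adjusted p = 4.2e-06), and 58.9 and 65.8 RPKM at st10, where it was the most abundant LIM gene. The vnd-like gene (aug3.g1145, scaffold 294, 360394 to 417694, minus strand), described after a Drosophila gene of the ventral nerve cord, had 2.47 and 2.94 RPKM at st8, against 0.0156 and 0.114 at st7 (log2 change 1.80 ± 0.16, limma adjusted p = 3.3e-05), and 17.6 and 15.2 RPKM at st10.

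MSH-D-like (aug3.g15189, scaffold 35, 1214090 to 1229614, minus strand) was the most abundant NK-like gene and built up over a long time. It had 7.33 and 7.06 RPKM at st2, 9.38 and 5.65 at st3, 12.5 and 4.87 at st4, 10.2 and 20.5 at st5 early, 40.3 and 51.2 at st5 late, 39.0 and 11.4 at st6, 63.7 and 69.2 at st7, 59.4 and 75.5 at st8, and 24.8 and 25.3 at st10. Its highest mean was at st8, 67.5 ± 11.4 RPKM (SD, n = 2), and series 1 was highest at st7. The st6 value of series 2 was below both neighbouring stages, as were those of Meis2 and ceh-16. These values come from the library with the lowest median-ratio factor, given above.

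At the last interval the members with a call were mostly higher. At st10 against st8, 37 members were higher and 5 lower, against 4.17% and 1.47% of all tested gene models, or 5.64% in either direction. The median log2 change of the tested members was 0.58, and that of all tested gene models was 0.02. These values partly restate the minimum of 1 RPKM, since 19 of the 42 called members met it only with libraries of st8 and st10. When it was read outside those stages, 18 of 75 members were higher and 4 lower, against 2% and 1.15% of all, and the median log2 change was 0.31 over the members and 0.01 over all. The count over both directions, from all 97, was 25 without the st10 library of series 1, 16 without that of series 2 (where st4 against st3 had 21) and 20 with a pseudocount of 0.1 (where st4 against st3 had 26 and st2 against st1 had 23). Of the 42 calls, 5 held in every alternative. Of the 37 higher members, 11 were NK-like (of 22 tested), 5 PRD-like (of 12), 4 LIM (of 7), 3 Pax (of 8) and 3 Iroquois genes (of 5). Classes were not compared with each other by a test.

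Several genes went from next to nothing to clear expression within this interval. The next 3 and aug3.g14368 met the minimum only with libraries of st8 and st10, so their values are given without a test. DBX1 (aug3.g26237, scaffold 146, 241966 to 253070, plus strand), which in mouse sets up a class of spinal interneurons, had 10.3 and 11.3 RPKM at st10, against 0.454 and 0.629 at st8, and at most 0.212 RPKM in any earlier library. The ceh-30-like gene (aug3.g4165), of the BarH group, had 6.97 and 9.56 RPKM at st10, against 0.196 and 0.194 at st8. A POU class 3 gene (aug3.g15946), of the kind known from the nervous system, had 8.67 and 13.6 RPKM at st10, against 0.787 and 1.16 at st8.

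The 2 Lhx1-like LIM gene models, which share an identifier, had the largest rises of this interval. The model aug3.g16539 had 15.9 and 17.8 RPKM at st10, against 0.633 and 1.57 at st8 (log2 change 3.12 ± 0.44, limma adjusted p = 0.00028), and aug3.g12957 had 13.6 and 12.7 RPKM, against 0.278 and 1.10 (log2 change 3.11 ± 0.67, limma adjusted p = 0.010). In series 2 both also had reads at st3, 3.17 RPKM in aug3.g16539 and 6.57 RPKM in aug3.g12957, against 0.338 and 0 in series 1, so an early level was seen in 1 series only. The second call was lost in 5 alternatives, with an adjusted p of up to 0.19 by limma.

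A paired mesoderm homeobox 2-like gene (aug3.g14368), a PRD-like gene of 218 bp of exon, had no read in any library before st10 and 11 and 21 reads there, or 3.82 and 6.3 RPKM. Pax-1-like (aug3.g27336) had 22.3 and 12.2 RPKM at st10, against 3.40 and 2.38 at st8 (log2 change 2.18 ± 0.38, limma adjusted p = 0.0022), which only the pseudocount of 0.1 lost (adjusted p = 0.27 by limma). Prospero (aug3.g15298), whose Drosophila relative acts in the daughters of neural stem cells, had its highest mean at st10, 4.26 ± 1.51 RPKM (SD, n = 2). GBX-2-like (aug3.g5351), named for a gene of the mouse hindbrain boundary, had 13.8 and 14.7 RPKM at st10, against 4.53 and 4.76 at st8 (log2 change 1.43 ± 0.28, limma adjusted p = 0.0049; up to 0.099 in the 2 alternatives that lost it).

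The 5 members that were lower at st10 than at st8 were ceh-16, given above, XHOX-3-like (aug3.g17585), koza (aug3.g3361), Rax (aug3.g9068) and Nkx-2.2a-like (aug3.g25082). Their log2 changes other than that of ceh-16 were -1.57 ± 0.27, -1.88 ± 0.37, -0.89 ± 0.18 and -0.78 ± 0.20. The calls of koza, Rax and Nkx-2.2a-like were lost in 3, 4 and 10 alternatives, and Nkx-2.2a-like met the minimum only with libraries of st8 and st10.

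Classes differed in when they came on, although several are small. In the TALE class without Iroquois, 8 of 10 detected members had their onset at st1. The NK-like class, the largest with 36 gene models, had 22 detected members, of which 5 began at st1, 2 at st2 or st3, 0 at st4 or st5 and 15 from st6 on, and 15 peaked at st10. Of the 24 PRD-like gene models, with the Otx genes counted as a class of their own, only 12 passed the filter. Of these, 9 were detected, 7 of them from st6 on. Of 11 LIM gene models 7 passed the filter, and 5 of these peaked at st10. In the CUT class, cut-like 1 (aug3.g3872) and cut-like 2 (aug3.g13427) both began at st7. Cut-like 1 had 6.75 and 11.6 RPKM at st10, against 2.33 and 2.74 at st8 (log2 change 1.49 ± 0.22, limma adjusted p = 0.00052). Only the pseudocount of 0.1 lost this call (adjusted p = 0.067 by limma). Cut-like 2 stayed at 0.766 to 1.5 RPKM from st7 to st10. Cut proteins are known in Drosophila from the external sense organs.

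Iroquois genes, which in Drosophila prepare the pattern of sense organs on the thorax, were dominated by 1 gene. IRX-6 (aug3.g8295, scaffold 893, 336196 to 383464, plus strand) had 0.373 and 1.68 RPKM at st1, 19.1 and 7.36 at st2, 8.19 and 3.03 at st3, between 8.38 and 21.0 from st4 to st6, 29.5 and 35.3 at st7, 39.0 and 47.9 at st8, and 42.9 and 57.5 at st10. The log2 change at st10 against st1 was 4.72 ± 0.48 (limma adjusted p = 9.6e-07). The 2 IRX-6-like gene models with a shared identifier, aug3.g12625 and aug3.g20242, were under 0.7 RPKM until st7 and reached 10.6 and 12.4 RPKM and 9.80 and 14.1 RPKM at st10. The IRX-4-like gene (aug3.g4636) ran the other way: it peaked at st3 with 2.88 and 2.62 RPKM and was at most 0.637 RPKM from st5 early on.

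Other members differed in their early levels. DLX-6-like (aug3.g15531), of the Distal-less family of appendage genes, had 31.3 and 7.22 RPKM at st1, 71.8 and 50.1 at st4, 8.29 and 7.67 at st7, and 56.3 and 60.6 at st10. It thus had a high phase around st4 and another at st10, and was above 7 RPKM in every library. The zinc finger homeobox 3-like gene (aug3.g11268) stayed between 11.6 and 40.5 RPKM throughout, whereas the zinc finger homeobox 4-like gene aug3.g25763 had 27.2 and 26.0 RPKM at st10, against 0.941 and 1.58 at st1 (log2 change 3.62 ± 0.42, limma adjusted p = 4.4e-06). The POU class 2 gene had 2 gene models, aug3.g13364 and aug3.g13365, that lie end to end on scaffold 1634 and share an identifier. They had 10.5 and 11.4 RPKM and 16.9 and 23.7 RPKM at st10, against 1.94 and 1.98 RPKM and 1.98 and 0.942 RPKM at st1. Mix.2-like (aug3.g27124), described after a Xenopus endoderm gene, was the most abundant gene of the PRD-like class as set here, without the Otx genes. It had 8.66 and 8.41 RPKM at st10, against 0.659 and 0.404 at st1 (log2 change 2.64 ± 0.39, limma adjusted p = 4.5e-05).

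The non-POU gene model aug3.g20793 had the highest mean of the 140 members, 514 RPKM at st6. That peak came from the library that stood apart: series 2 had 743 RPKM at st6, and series 1 had 284 RPKM there and its highest value, 386 RPKM, at st5 early. Among members with a homeodomain the highest mean was that of Meis2 (aug3.g13867) at st10.

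A group of 9 members was detected early, fell under the detection limit at 1 or more stages from st4 to st5 late, and was detected again later. They were at or above 1 RPKM in both series at a stage from st1 to st3, under 1 RPKM in both at a stage from st4 to st5 late, and detected again later; this pattern was defined after the values were seen and is a description. Besides OTX2-A-like (aug3.g9172), XHOX-3-like (aug3.g17585) and koza (aug3.g3361), they were SIX3-like, orthopedia-like, EMX1, Lhx9, caupolican-like and barH-like 2. Of the stages from st4 to st5 late, OTX2-A-like was under 1 RPKM in both series at st4 only. Gene models with this pattern were not counted over the whole table. SIX3-like (aug3.g328) had 1.36 and 1.42 RPKM at st3, 0 reads in both series at st4, and 3.28 and 2.45 RPKM at st7. Orthopedia-like (aug3.g16467) had 1.90 and 7.87 RPKM at st3, 0.544 and 0.768 at st5 late, and 4.36 and 3.20 at st6, and its peak fell at st3 in series 2 and at st6 in series 1. EMX1 (aug3.g26211), of the empty spiracles family, had 1.35 and 4.31 RPKM at st1, 0.324 and 0.409 at st4, and 25.5 and 22.6 at st10.

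Koza (aug3.g3361) had 1.85 and 0.340 RPKM at st1, 3.30 and 1.49 at st2, at most 0.222 from st4 to st5 late, 4.28 and 6.66 at st8, and 0.974 and 0.505 at st10. Lhx9 (aug3.g2649) differed most between the series at the start, with 1.49 and 13.9 RPKM at st1 and 1.05 and 7.38 at st2, no read in either series at st4, and 2.25 and 3.15 RPKM at st10. The early phase of most of these genes was weak: apart from OTX2-A-like, XHOX-3-like, and the series 2 values of orthopedia-like, EMX1 and Lhx9, it stayed under 4 RPKM. Another 2 members were detected in both series at stages up to st3 only, MSX-2-like (aug3.g4533) and the zinc finger homeobox 4-like gene aug3.g26127.

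Gene models that share an identifier may be parts or copies of 1 gene, and reads that fit several places were removed by the authors' filter, so levels of such models are uncertain. Of the pairs with both models tested, the IRX-6-like, Meis2, POU class 2, Lhx1-like and extradenticle pairs followed the same course, with r of log2 values over the 20 samples of 0.99, 0.99, 0.94, 0.92 and 0.92. The 2 ZEB2 models, aug3.g10715 and aug3.g19505, were less alike (r = 0.38).

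Neighbouring homeobox genes were looked up in the RefSeq annotation of a later assembly, CAS_Ptep_4.0, to which 130 of the 140 gene models could be matched, as 111 genes. It placed members in 19 pairs with at most 1 gene between them, 12 of these next to each other. Some neighbours had nearly the same course over the 20 samples, and others had not, as correlations of log2(RPKM + 1) over samples that share stages show. Members that are not neighbours and share no identifier were not correlated for comparison. EMX1-like (aug3.g2295) and EMX2-like (aug3.g2297) both began at st6 and correlated with r = 0.96. The retinal genes Rx1 (aug3.g9070) and Rax (aug3.g9068) both began at st7 and peaked at st8 (r = 0.96). Tlx3-like (aug3.g4167) and ceh-30-like (aug3.g4165) both began at st10 (r = 0.96). Both met the minimum only with libraries of st8 and st10, so their shared onset and r partly restate it. The second pair of Emx genes, EMX1 (aug3.g26211) and EMX2 (aug3.g26210), both peaked at st10 (r = 0.89), but EMX1 alone had an early phase, with onsets at st1 and st7.

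Other neighbours differed. B-H1 (aug3.g8250) had 17.1 RPKM or more in every library up to st5 late, where its neighbour barH-like 2 (aug3.g15951) was under 1 RPKM from st2 to st8, and the pair correlated with r = 0.11. Lhx9 (aug3.g2649) and Lhx9-like (aug3.g2651) correlated with r = -0.22, and orthopedia-like (aug3.g16467) and Rax (aug3.g9068), with 1 gene between them, with r = -0.31. In the Iroquois run IRX-6 (aug3.g8295), IRX-6-like (aug3.g20242) and caupolican-like (aug3.g13696), consecutive neighbours correlated with r = 0.55 and 0.76, and all 3 peaked at st10.

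**Figure D5:**
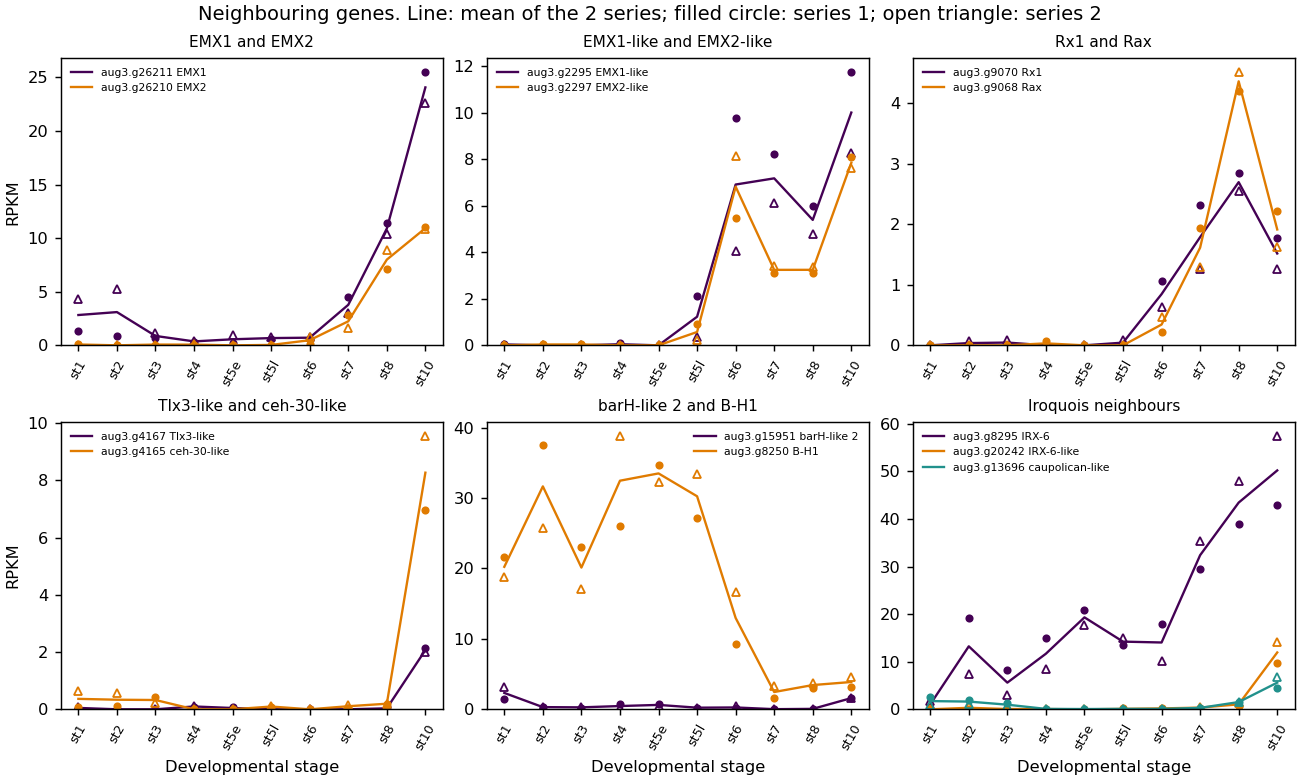
Abundance in RPKM (vertical axes, linear, from 0) by stage (horizontal axes) of 6 sets of homeobox genes that lie next to each other or 1 gene apart in the assembly CAS_Ptep_4.0; circles are series 1, triangles series 2, and lines the means. Members of the Emx-like pair and of the Rx and Rax pair follow each other (r = 0.96 each over 20 samples), whereas B-H1 and barH-like 2 do not (r = 0.11). Tlx3-like and ceh-30-like also have r = 0.96, but both met the minimum of 1 RPKM only with libraries of st8 and st10.

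Lists of related genes were described in the same way, here and in the next paragraph. At st10 against st1, 23.2% of all tested gene models were called higher and 34.9% lower. Of 21 Hox cluster gene models, all tested, 19 were called higher at st10 than at st1 and 1 lower, with a median log2 change of 2.46, and 12 had their onset at st6 or later. Of 13 gene models of proteins known to work with homeodomain proteins, such as the LIM domain-binding and C-terminal-binding proteins, 12 were tested, 7 were higher and 3 lower, and 9 had their onset at st1. LIM domain-binding protein 2 (aug3.g26015), which links LIM homeodomain proteins, had its highest mean, 263 ± 71.3 RPKM (SD, n = 2), at st10, against a mean of 30.8 RPKM at st1 (log2 change 3.03, limma adjusted p = 2.8e-07). Of 9 gene models of homeodomain proteins whose descriptions lack the words searched, 4 were tested and all 4 were higher, among them gooseberry (aug3.g18397), a Pax gene of segments in Drosophila, with 55.3 and 53.1 RPKM at st5 late, its peak.

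Gene models whose descriptions name neuron or muscle proteins are given beside the rises at st10. Of 39 gene models of neuron markers (elav, synaptotagmin, neuroglian, synaptobrevin and complexin) 16 were tested, 1 was higher and 8 lower at st10 than at st1, and their summed abundance was 440 and 443 RPKM at st10, against 433 and 513 RPKM at st1. Of 12 gene models of muscle markers (troponin, muscle myosin heavy chain and tropomyosin) 7 were tested, 3 were higher and 2 lower, and their sum was 253 and 193 RPKM at st10, against 164 and 196 RPKM at st1. At st6 the sum of the neuron markers was 488 RPKM in the library of series 1 and 814 RPKM in that of series 2. Onset fell at st1 in 14 of the neuron and 4 of the muscle gene models, and at st6 or later in 0 of either list. Part of each list was thus expressed in the cleaving egg, and the sums do not measure differentiated neurons or muscle. Single gene models also weigh heavily in them. The ELAV-like 1 pseudogene (aug3.g757) had a mean of 308 RPKM at st10, against 132 at st1. ELAV-like 3 (aug3.g23888) went the other way, with 8.86 against 92.8 RPKM. A tropomyosin (aug3.g670) had 191 RPKM at st10, against 142 at st1. The part of these tissues in the changes of the homeobox genes was not tested.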

How the data were processed

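RNA-Seq of poly(A) RNA from whole embryos was analysed in 20 samples, 10 stages in 2 series, with stage and series taken from the labels. The authors trimmed the reads with CLC Genomics Workbench and placed them on the assembly Ptep_1.0 with BLAT. Alignments of low coverage or identity and those that fit more than 1 place were removed. Strand-specific counts per AUGUSTUS gene model were made with HTSeq 0.6.1p1 and deposited as RPKM. The table held 20 RPKM columns, each matched to 1 sample. The deposited coverage tracks were not used here, and neither was any published comparison.

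The members and lists were chosen with earlier results of these data known. Classes and lists were set by words in the descriptions and corrected once the descriptions had been read. The genes named were the most abundant member of each class, the 6 highest at st1, the 10 highest at any stage, the 5 largest rises and falls at st10 against st1, up to 6 called members per step between st4 and st8, all engrailed and Otx genes, and models that share their identifiers. Genes named beyond that (early and late phases, neighbours, the rises at st10, parts of a class) were chosen after their values were seen. Results of some members are not reported here.

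Read totals and exon lengths were recovered from the steps between RPKM values, and the recovery was tested on simulated data. A length was found for 21736 of 21765 gene models with reads (99.87%). It is the smallest that gives whole reads within 0.01, so for models with few reads it may be too short. The limit of 3 reads covers counting error only.

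RPKM values are not counts, and the study states no test between stages. Tests were therefore run on log2(RPKM + 1) with limma 3.58.1 (eBayes with trend) in R 4.3.3, for gene models at 1 RPKM or more in at least 2 samples, in 1 fit of 10 stage means with Benjamini-Hochberg adjustment over the 13375 gene models, and tested on simulated data. A moderated F test was made over the 10 stages, followed by contrasts of each stage with the one before and of st10 with st1. Onset and peak are descriptions with no test. The replicate number marks the pair of parents and so pairs the samples: the differences between the series correlated between stages with a median of 0.24 (-0.06 to 0.70 over 45 pairs of stages, 37 of them above 0.1). The alternatives were median-ratio scaling, a minimum of 5 RPKM or no minimum, a pseudocount of 0.1, voom weights on the recovered reads, the replicate block, each library left out in turn, both st6 samples left out, and detection limits of 0.5 and 5 RPKM, and, chosen after seeing the data, the minimum of 1 RPKM read outside the 2 stages compared. Plots were made with Python 3.11.15, pandas 2.3.3, numpy 2.4.6 and matplotlib 3.10.9.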

Additional observations from a re-analysis of the deposited data

Results flagged for a closer look

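Of the named genes, koza (aug3.g3361) moved in opposite directions in the 2 series at st10 against st1. Its log2 change was -0.53 in series 1 and 0.17 in series 2, and this difference between the series was not tested. The levels behind it were low, 0.974 and 0.505 RPKM at st10 against 1.85 and 0.340 RPKM at st1, and rest on 10 and 6 reads at st10 against 20 and 3 reads at st1.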

How the results depend on the processing

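No called change of a member reversed its direction under any alternative. The counts of members across the 10 stages (88) and at st10 against st1 (76) stayed within 1.5 times of these values, between 59 and 99 and between 54 and 83. A pseudocount of 0.1 gave 23 calls at st2 against st1, 2 at st3 against st2, 1 at st5 early against st4, 3 at st5 late against st5 early, 3 at st7 against st6, 4 at st8 against st7 and 20 at st10 against st8. A minimum of 5 RPKM gave 3 at st3 against st2, 14 at st4 against st3, 1 at st5 early against st4 and 25 at st10 against st8, and it left 41 members with a shared peak stage and 41 peaking at st7 to st10, where fewer members were tested. No filter gave 8 at st3 against st2, and median-ratio scaling gave 3. Voom weights gave 3 at st3 against st2, 1 at st5 early against st4 and 5 at st8 against st7. Reading the minimum outside the 2 stages compared, chosen after seeing the data, gave 1 at st5 early against st4 and 22 at st10 against st8, where fewer members were tested. At a detection limit of 5 RPKM, 44 members had an onset at st2 or later. Leaving out single libraries gave 75 to 91 calls across the stages, 10 to 19 at st2 against st1, 0 to 7 at st3 against st2, 14 to 25 at st4 against st3, 1 to 2 at st5 early against st4, 1 at st5 late against st5 early, 6 to 25 at st6 against st5 late, 1 to 27 at st7 against st6, 3 to 13 at st8 against st7, 16 to 46 at st10 against st8 and 63 to 78 at st10 against st1; the lone library of the stage was assumed to vary like the others. Series 1 alone gave 26 members detected at st1, 70 with a later onset and 62 peaking at st7 to st10, and series 2 alone gave 32, 71 and 66. With the replicate block for the pairing by parents, 91 members differed across the stages and 77 at st10 against st1, and the block changed none of the 98 calls of named genes. The cause of the other shifts was not tested. For gene models of the median member length, levels under 0.14 to 0.26 RPKM rest on fewer than 3 reads. This limit is lower for longer gene models and higher for shorter ones.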
